A study of Mus musculus with 16 samples.

Results

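The D-type cyclins, their kinase partners and the inhibitors of those kinases were followed in ventricular tissue of mice under pressure overload and a transcriptional kinase inhibitor. The genes were Ccnd1, Ccnd2, Ccnd3, Cdk4, Cdk6, Cdkn1a, Cdkn1b, Cdkn1c, Cdkn2b and Cdkn2c, chosen by symbol and matched through their Ensembl identifiers. They make up 10 of the 22372 protein-coding genes in the table of normalized counts, and 10 of the 10 passed the filter on low values, which was at least 10 normalized counts in at least 4 libraries. RNA came from a piece of ventricle from each heart, of C57BL/6J mice that were 10 to 12 weeks old when the experiment began, and the study's methods describe the animals as male.

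Transverse aortic constriction (TAC) places a suture around the aortic arch, so that the left ventricle pumps against a raised load, and sham animals had the same operation without the suture. THZ1 binds covalently to Cdk7, Cdk12 and Cdk13, kinases of the RNA polymerase II tail. The groups were Sham-Veh and TAC-Veh, which received vehicle, and Sham-THZ1 and TAC-THZ1, which per the labels received THZ1 into the peritoneum at 10 mg/kg, 2 times daily, from postoperative day 1 until day 60. No group carried a transgene. Each group had 4 libraries, labelled as numbered replicates of mouse heart, and the 16 libraries held 21.4 to 35.8 M (mega) reads in protein-coding genes.

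D-type cyclins are made in response to growth signals and activate Cdk4 and Cdk6, which phosphorylate the retinoblastoma protein and thereby release E2F transcription factors at the entry to S phase. The INK4 proteins (p15 from Cdkn2b, p18 from Cdkn2c) bind Cdk4 and Cdk6 and keep the cyclin away, while the Cip/Kip proteins (p21 from Cdkn1a, p27 from Cdkn1b, p57 from Cdkn1c) bind cyclin-kinase complexes and mainly restrain Cdk2. Most cardiomyocytes of the adult mouse have left the cell cycle, whereas fibroblasts, endothelial cells and immune cells of the heart can still divide, and Cdk7 itself, with cyclin H and Mat1, forms the kinase that activates the cell cycle kinases.

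Of the 10 genes, 3 were higher in TAC-Veh than in Sham-Veh (Cdk4, Cdkn1a and Cdkn2b) and 2 lower (Cdkn1b and Cdkn1c), at an adjusted p under 0.05 in limma over 13331 genes, of which 21.4% were called higher and 23.6% lower. In TAC-THZ1, 3 were lower than in TAC-Veh (Ccnd1, Ccnd2 and Cdkn2b) and 0 higher, where 14.2% of all genes were called lower and 15.1% higher. TAC-THZ1 exceeded Sham-THZ1 for 2 (Cdk4 and Cdkn2b), where 11.4% of genes were called higher and 12.8% lower.

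The promoters of the members that rose with TAC are shown first, since they let the letters upstream of these genes be read beside their values. They were taken from RefSeq, which held 10 promoters for 7 of the 10 genes (Ccnd1, Ccnd2 and Cdkn1c were not matched), and each sequence was found at exactly 1 place in the NCBIM37 (mm9) genome, the build of the files. Each line gives the 250 bases before the transcript's start, 5′ to 3′ on the strand of the gene.

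Cdk4, chr10:126500341-126500590, plus strand, with the E-box CACGTG in capitals: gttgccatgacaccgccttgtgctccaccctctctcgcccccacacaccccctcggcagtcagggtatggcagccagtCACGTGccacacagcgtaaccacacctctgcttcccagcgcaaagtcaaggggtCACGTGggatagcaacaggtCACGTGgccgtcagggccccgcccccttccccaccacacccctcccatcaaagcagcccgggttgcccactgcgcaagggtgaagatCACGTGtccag

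Cdkn1a, first start, chr17:29227674-29227923, plus strand, with the p53 response element in capitals: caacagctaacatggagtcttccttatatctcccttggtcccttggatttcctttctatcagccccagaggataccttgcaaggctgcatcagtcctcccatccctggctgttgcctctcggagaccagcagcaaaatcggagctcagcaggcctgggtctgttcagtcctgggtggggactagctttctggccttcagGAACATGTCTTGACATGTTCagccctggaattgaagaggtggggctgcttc

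Cdkn1a, second start, chr17:29230464-29230713, plus strand, no capitals: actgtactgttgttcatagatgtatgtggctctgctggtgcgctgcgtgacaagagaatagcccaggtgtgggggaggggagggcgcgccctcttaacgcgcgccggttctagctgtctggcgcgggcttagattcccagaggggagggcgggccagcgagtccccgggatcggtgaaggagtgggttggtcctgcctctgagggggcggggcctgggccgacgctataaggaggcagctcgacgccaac

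Cdkn2b, chr4:88956942-88957191, minus strand, with the cyclic AMP response element TGACGTCA in capitals: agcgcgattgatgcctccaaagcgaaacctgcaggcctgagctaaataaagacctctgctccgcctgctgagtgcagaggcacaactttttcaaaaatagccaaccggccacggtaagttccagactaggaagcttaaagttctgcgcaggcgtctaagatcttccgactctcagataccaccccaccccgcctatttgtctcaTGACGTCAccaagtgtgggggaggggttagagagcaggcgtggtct

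The Cdk4 promoter held 4 E-boxes, the sequence to which Myc and Max bind, at -172, -118, -98 and -11 from the start. At least 1 E-box stood in 6.02% of the 32851 RefSeq mouse promoters over the same 250 bases, and 4 or more in 0.0213%. The Cdk6 promoter, not shown, held 1 E-box, at -220. Cdk6 was not called with TAC (log2 difference -0.53, limma adjusted p 0.0613). The motif put in capitals was picked for each gene. The p53 response element of the first Cdkn1a start began at -51 and spanned 20 bases. It was searched with 1 mismatch and a spacer of at most 1 base allowed, a choice made after the sequence was seen, and stood in 0.140% of the promoters, whereas the second start of Cdkn1a had none. The element of Cdkn2b began at -46, and 1.55% of promoters held one. Searches on both strands for AP-1 (TGACTCA or TGAGTCA, in 4.46% of promoters) and E2F (TTTGGCGC, TTTCCCGC, TTTGCCGC or TTTCGCGC, in 1.86%) found no match in the 10 promoters of these genes. The second Cdkn1a start and the Cdk4 promoter also held GC boxes (GGGCGG, in 32.7% of promoters), which did not overlap the motifs in capitals. These matches describe letters and not binding, which was not measured in these libraries.

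The levels of the 10 genes per kb of exon set the order in which the tissue carried their transcripts. Over all 16 libraries the mean was 509.7 normalized counts per kb for Ccnd1, 464 for Ccnd2, 408 for Ccnd3, 295 for Cdkn1a, 293 for Cdk4, 273 for Cdkn1b, 206 for Cdkn1c, 96.4 for Cdkn2c, 11.3 for Cdkn2b and 9.45 for Cdk6. Cdkn1c lay above Cdkn2c in 16 of 16 libraries with no overlap of their ranges, as did Cdkn2c above Cdkn2b. All other neighbours in this order had overlapping ranges. The mean of Cdkn1a was carried by 1 library, and this gene lay above Cdk4 in 3 of 16 libraries. Among the partners, Cdk4 gave 95.8% of the summed Cdk4 and Cdk6 level in Sham-Veh and 97.5% in TAC-Veh, so the D-type cyclin partner measured in this tissue was mainly Cdk4 at the level of transcripts. Exons of Ccnd3 had 21.9% of their 40-base windows, the length of a read, repeated elsewhere in the genome, against 5.35% for Cdk6, 3.03% for Cdk4 and at most 0.0225% for the other 7, so the level of Ccnd3 is the most uncertain of the cyclins. Genes on the opposite strand overlap Ccnd1, Ccnd3, Cdk4 and Cdk6, and the reads were counted by strand.

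**Figure D1:**
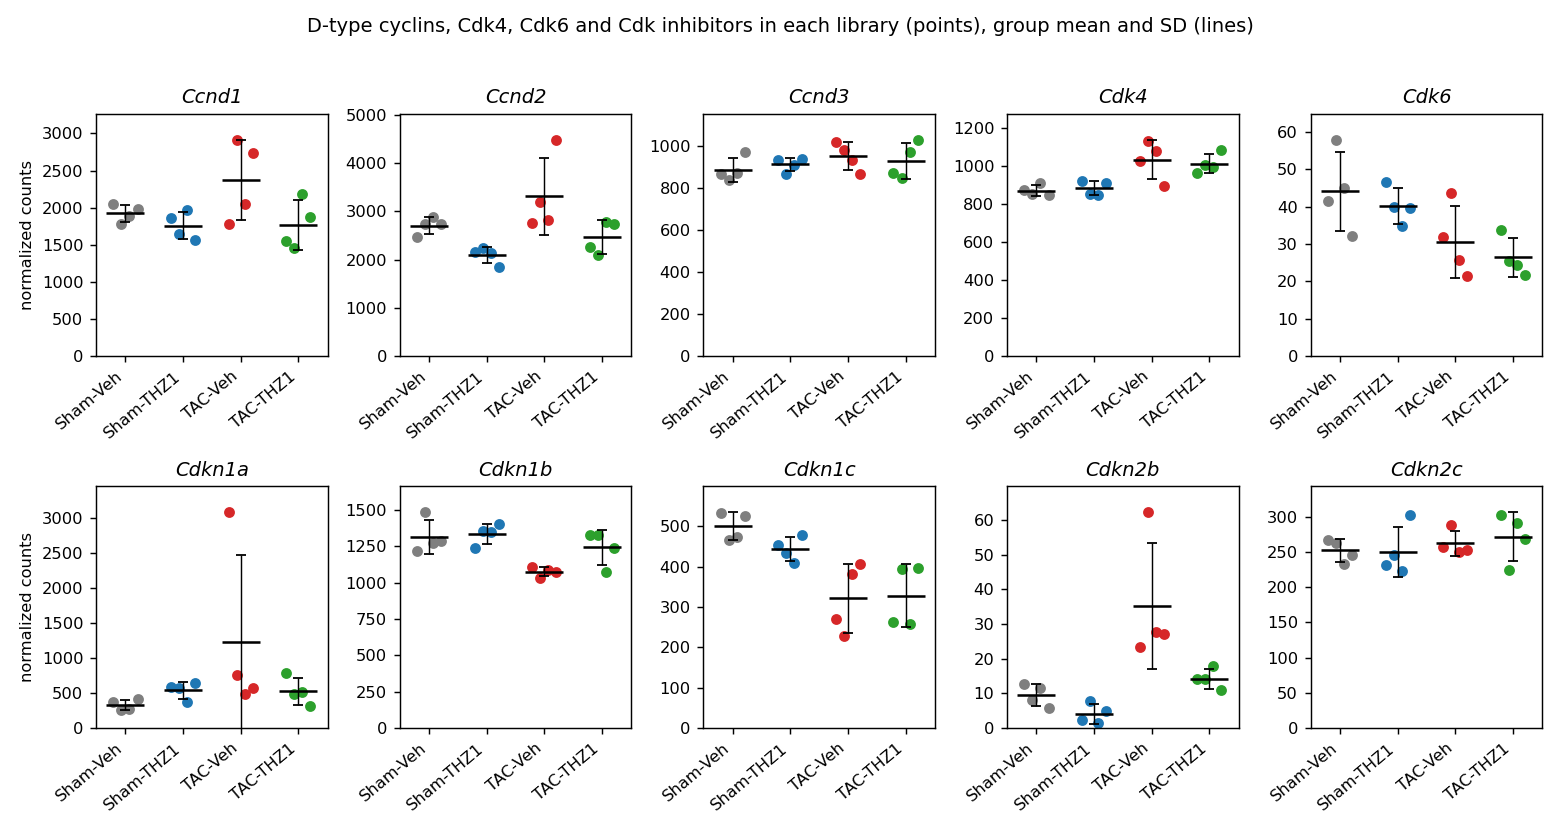
Normalized counts (vertical axes, from 0) of the 10 genes in the 4 libraries of each group, with replicates 1 to 4 from left to right, the group mean as a horizontal line and the SD as an error bar, cut at 0 for Cdkn1a in TAC-Veh. Cdkn2b in TAC-Veh lies above the other 3 groups in each library, and the mean of Cdkn1a in TAC-Veh is drawn up by replicate 1 at 3080.3.

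Ccnd1 (chromosome 7, 152115836 to 152125774) encodes cyclin D1, the growth factor-responsive member of the family. Its normalized counts in replicates 1 to 4 were 2048, 1776, 1894 and 1981 in Sham-Veh and 1779, 2907, 2048 and 2739 in TAC-Veh. They were 1856, 1651, 1966 and 1560.2 in Sham-THZ1 and 1549.6, 1458, 2188 and 1878 in TAC-THZ1. Replicates 2 and 4 of TAC-Veh stood above all 12 libraries of the other groups, while replicates 1 and 3 lay within them. The log2 difference between TAC-Veh and Sham-Veh was 0.27 (adjusted p 0.140, SE 0.15) and did not pass the threshold. TAC-THZ1 was lower than TAC-Veh by a log2 fold change of -0.41 (adjusted p 0.0429, SE 0.15), with overlapping groups. That call was lost with no filter on low values, with quantile normalization, with the replicate block and with the TAC groups fitted alone (adjusted p 0.0548, 0.0639, 0.0585 and 0.154). It was also lost without any 1 of Sham-Veh replicates 1 to 4, Sham-THZ1 replicates 1 and 2, TAC-Veh replicates 2 and 4, or TAC-THZ1 replicates 1, 2 and 4, where the adjusted p was 0.0514 to 0.150. Without TAC-Veh replicate 1, Ccnd1 was instead higher in TAC-Veh than in Sham-Veh, at 0.40 (adjusted p 0.0251).

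Ccnd2 (chromosome 6, 127075797 to 127101066), the gene of cyclin D2, had the highest normalized counts of the 10 genes in every library except TAC-Veh replicate 1, where Cdkn1a was higher, though it ranked below Ccnd1 per kb of exon. It measured 2466, 2747, 2888 and 2733 normalized counts in Sham-Veh and 2757, 3198, 2819.5 and 4479 in TAC-Veh. It measured 2162, 2238, 2146 and 1846 in Sham-THZ1 and 2259, 2094, 2785 and 2736 in TAC-THZ1. The 4 Sham-THZ1 libraries all lay below the 4 Sham-Veh libraries, and replicate 4 of TAC-Veh stood far above the other libraries of its group. With THZ1 in TAC the log2 fold change was -0.41 (adjusted p 0.0273, SE 0.13). With THZ1 in sham hearts it was -0.37 (SE 0.13), with an unadjusted p of 0.0115 and an adjusted p of 0.625, so that it did not pass over all genes. It passed with the sham groups fitted alone (adjusted p 0.00741) and with array weights (0.0195). The difference between these drug changes was -0.04 (95% interval -0.43 to 0.35, adjusted p 0.925). TAC itself gave 0.26 (adjusted p 0.109), which passed only without TAC-Veh replicate 1 (0.34, adjusted p 0.0465) among the omissions of 1 library. The drug call in TAC was lost without TAC-Veh replicate 2 or 4 or TAC-THZ1 replicate 1 or 2, at adjusted p 0.0539, 0.0673, 0.0701 and 0.0935, and the change shrank to -0.25 without TAC-Veh replicate 4. It was also lost with the TAC groups fitted alone (adjusted p 0.124).

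Ccnd3 (chromosome 17, 47642000 to 47736632), which encodes cyclin D3, was the steadiest of the cyclins. Its 16 values lay between 836 and 1027 normalized counts, with group means of 951 ± 65.9 normalized counts (SD, n = 4) in TAC-Veh, 886 ± 58.6 in Sham-Veh, 929 ± 85.8 in TAC-THZ1 and 913 ± 32.2 in Sham-THZ1. The groups overlapped in every comparison. The log2 difference was 0.10 for TAC (95% interval -0.05 to 0.26, adjusted p 0.280) and -0.04 for THZ1 in TAC (-0.19 to 0.12, adjusted p 0.747).

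Summed per kb of exon, the 3 cyclins came to 1620.2 ± 236 normalized counts per kb in TAC-Veh (SD, n = 4), 1370.0 ± 47.6 in Sham-Veh, 1306 ± 179 in TAC-THZ1 and 1231 ± 67.2 in Sham-THZ1. The spread in TAC-Veh exceeded that in either sham group, and its libraries ran from 1399 to 1884. The make-up of the sum also differed between libraries of TAC-Veh, where Ccnd3 gave 20.4% to 32.3% of it, against 27.9% to 30.2% in Sham-Veh. Ccnd2 gave 29.9% ± 1.84 of it in Sham-THZ1 and 34.7% ± 2.27 in Sham-Veh (SD, n = 4). No test was made on these sums and shares.

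**Figure D2:**
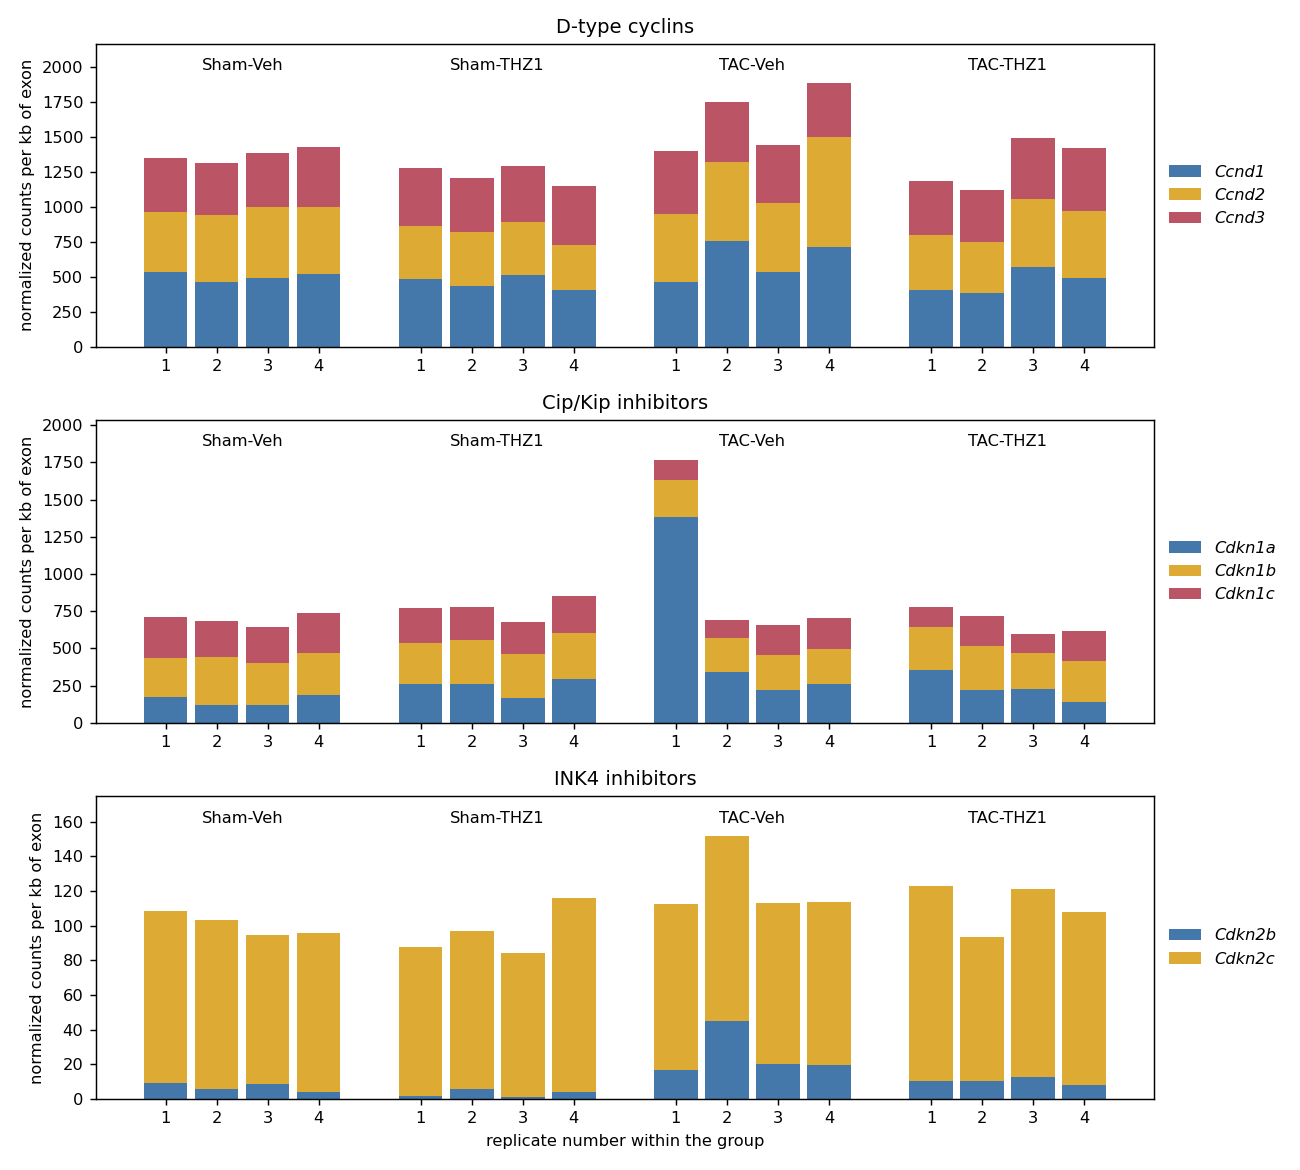
Normalized counts per kb of exon (vertical axes, from 0) in each library, stacked by gene, for the D-type cyclins, the Cip/Kip inhibitors and the INK4 inhibitors Cdkn2b and Cdkn2c. The cyclin sum reaches 1884 in TAC-Veh, the Cip/Kip sum of TAC-Veh replicate 1 is mostly Cdkn1a, and Cdkn2b is the smaller part of the sum with Cdkn2c in every library.

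Cdk4 (chromosome 10, 126500590 to 126504976), the kinase partner that all D-type cyclins share, rose by a small amount with TAC. It measured 876, 852, 912 and 847 normalized counts in Sham-Veh and 1029, 1132, 1083 and 894 in TAC-Veh, where replicates 1 to 3 stood above all Sham-Veh libraries and replicate 4 lay among them. The log2 fold change was 0.24 (adjusted p 0.00949, SE 0.07), or 1.18-fold, and the call held in 16 of 16 omissions of 1 library. Under THZ1 the values were 919.6, 852, 851 and 909.8 in Sham-THZ1 and 965, 1006, 996 and 1085 in TAC-THZ1, with no overlap. TAC-THZ1 was 0.20 above Sham-THZ1 on the log2 scale (SE 0.07, adjusted p 0.0476), a call that was lost with no filter (adjusted p 0.0559), with the replicate block (0.0740) or when any 1 of the 4 Sham-Veh, 4 Sham-THZ1 or 4 TAC-THZ1 libraries was left out (adjusted p 0.0571 to 0.130). TAC-THZ1 and TAC-Veh differed by -0.03 (95% interval -0.17 to 0.12, adjusted p 0.810). Tspan31 lies on the opposite strand of the Cdk4 locus.

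Cdk6 (chromosome 5, 3343893 to 3523218), the alternative partner of the D-type cyclins, was read only 20 to 72 times per library. It measured 41.4, 57.8, 45.1 and 32.2 normalized counts in Sham-Veh and 31.7, 43.6, 25.8 and 21.3 in TAC-Veh. It measured 46.5, 39.8, 34.7 and 39.5 in Sham-THZ1 and 33.9, 25.5, 24.4 and 21.8 in TAC-THZ1. The TAC-THZ1 libraries lay below all Sham-THZ1 libraries, and the vehicle groups overlapped. The log2 differences for TAC were -0.53 (adjusted p 0.0613, SE 0.22) under vehicle and -0.60 (adjusted p 0.0598, SE 0.22) under THZ1, both outside the threshold. The former passed without Sham-Veh replicate 4 (-0.67, adjusted p 0.0311) or TAC-Veh replicate 2 (-0.71, adjusted p 0.0159). The latter passed without TAC-Veh replicate 2, TAC-Veh replicate 4 or TAC-THZ1 replicate 1, at adjusted p 0.0375, 0.0435 and 0.0495. Quantile normalization and the replicate block brought both past the threshold (adjusted p 0.0129 to 0.0373), and the groups fitted alone or array weights the latter (0.0290 and 0.0171).

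Cdkn1a (chromosome 17, 29227924 to 29237667) encodes p21, a target of p53 that also responds to other stresses. Its normalized counts were 377, 259, 266 and 411 in Sham-Veh and 3080.3, 762, 485 and 578 in TAC-Veh. The groups did not overlap, and replicate 1 of TAC-Veh stood far above the other 3 libraries of its group. The log2 fold change was 1.48 (adjusted p 0.00999, SE 0.43), and without that library it was 0.89 (adjusted p 0.0120), so the call held while the size shrank. Cdkn1a was called in TAC-Veh in 30 of 30 alternatives.

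Under THZ1, Cdkn1a measured 579.7, 573, 369 and 650.4 normalized counts in Sham-THZ1 and 781, 493, 510.2 and 313 in TAC-THZ1. These groups overlapped each other, and 3 of the 4 Sham-THZ1 values were above every Sham-Veh value. The log2 difference for the drug was 0.72 in sham hearts (95% interval -0.18 to 1.63, adjusted p 0.799) and -0.85 in TAC hearts (-1.76 to 0.05, adjusted p 0.144), neither of which passed. The difference between these, the interaction of drug and surgery, was -1.58 (-2.86 to -0.30), with an unadjusted p of 0.0187 and an adjusted p of 0.105. Without TAC-Veh replicate 1 it was -0.99 (adjusted p 0.0770), and the drug difference in TAC was -0.26 (adjusted p 0.474). Leaving out TAC-Veh replicate 3 brought the interaction past the threshold, at -1.87 (adjusted p 0.0378). Array weights did so too (-1.44, adjusted p 0.0441), and the sham groups fitted alone brought the drug difference in sham hearts past it (adjusted p 0.0358).

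Genes of a list of p53 and its targets lay on both sides of the rest of their group in TAC-Veh replicate 1. Of the 19 genes of the p53 list beside Cdkn1a, 7 had their highest TAC-Veh value in that library, and 7 had it in replicate 4. The sizes differed, on the log2 scale against the mean of the other 3 libraries. They were 0.23 (Bax) to 1.70 (Trp53inp1) in replicate 1, with Btg2, Sesn1 and Perp at 0.83, 0.74 and 0.60. In replicate 4 they were 0.08 (Mdm2) to 0.60 (Gadd45a). The median gene of the list was -0.12 on the log2 scale in replicate 1 relative to the mean of the other 3 libraries, against 2.36 for Cdkn1a. Trp53inp1 (1.70), Pmaip1 (1.62) and Fas (1.20) also stood high there, with 1313, 48.2 and 697 normalized counts against at most 491, 17.9 and 346 in the other 3 libraries, while Eda2r (-0.87), Bbc3 (-0.71) and Gadd45a (-0.60) stood lowest. The 3 genes whose pattern over the 16 libraries was most like that of Cdkn1a were Baiap2, Slc3a2 and Picalm (Pearson r 0.959, 0.951 and 0.944), and the shared high library enters each of these values.

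**Figure D3:**
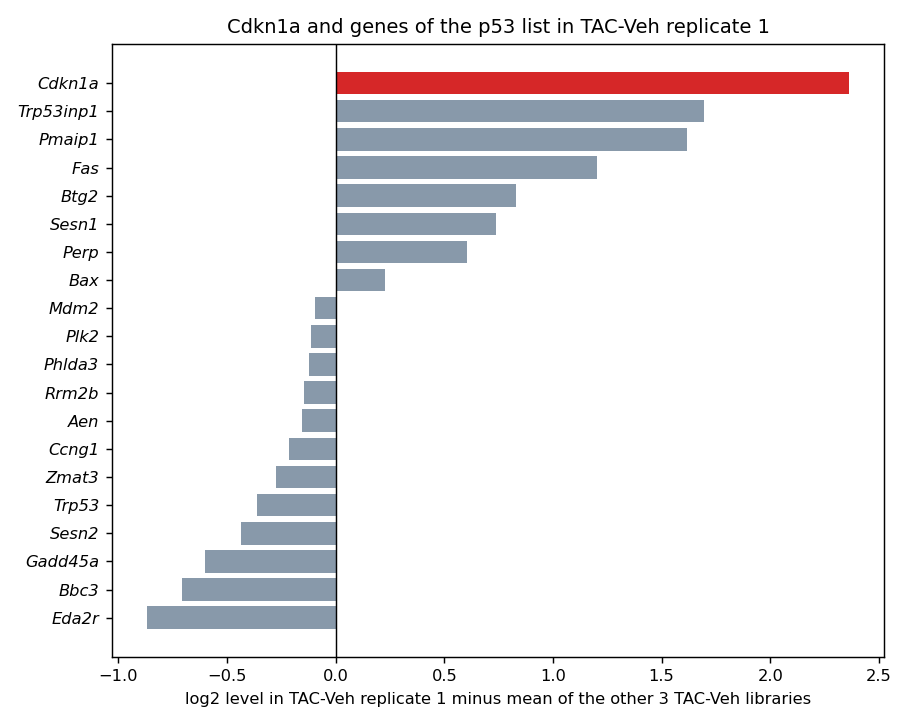
Log2 level in TAC-Veh replicate 1 minus the mean of the other 3 TAC-Veh libraries (horizontal axis, log2 units) for Cdkn1a, in red, and the 19 genes of the p53 list, in grey. Cdkn1a lies at 2.36, and the other genes spread on both sides of 0.

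Cdkn1b (chromosome 6, 134870419 to 134875531), the gene of p27, which holds Cdk2 inactive in resting cells, fell with TAC. It measured 1217, 1484, 1271 and 1283 normalized counts in Sham-Veh and 1109.9, 1034, 1089 and 1071 in TAC-Veh, with no overlap. The TAC-Veh values were close together, with an SD of 32.2, and the log2 fold change was -0.28 (adjusted p 0.00583, SE 0.08), or 0.821-fold. Under THZ1 it measured 1239, 1359, 1346 and 1403 in Sham-THZ1 and 1325, 1330.3, 1074 and 1241 in TAC-THZ1. Replicates 1, 2 and 4 of TAC-THZ1 were above every TAC-Veh library. The difference of 0.20 (adjusted p 0.0521, SE 0.08) from TAC-Veh missed the threshold, and it passed without Sham-Veh replicate 2, TAC-Veh replicate 1 or TAC-THZ1 replicate 3, at adjusted p 0.0394, 0.0499 and 0.0101. DESeq2 on the recovered reads also called it (0.21, adjusted p 0.0398).

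Cdkn1c (chromosome 7, 150644255 to 150646955) encodes p57 and is expressed from the maternal copy in an imprinted cluster. It measured 534, 465, 475 and 526 normalized counts in Sham-Veh and 270.4, 229, 381 and 406 in TAC-Veh, again with no overlap. The log2 fold change was -0.67 (adjusted p 0.00460, SE 0.17), or 0.628-fold, the largest fall of the 10 genes with TAC, and it held in 16 of 16 omissions. Under THZ1 it measured 454, 434, 410.0 and 479 in Sham-THZ1 and 262, 395, 258 and 397 in TAC-THZ1, and every TAC-THZ1 library was below every Sham-THZ1 library. That difference was -0.47 (adjusted p 0.0573, SE 0.17), and it passed without TAC-Veh replicate 1, 2 or 4 or TAC-THZ1 replicate 2 or 4 (adjusted p 0.0318 to 0.0444). It also passed with the THZ1 groups fitted alone, array weights and DESeq2 (adjusted p 0.0301, 0.0239 and 0.0488). THZ1 in TAC gave 0.04 (95% interval -0.33 to 0.40, adjusted p 0.896).

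Per kb of exon, Cdkn1c gave 35.3% to 38.8% of the Cip/Kip sum in Sham-Veh and 7.91% to 30.2% in TAC-Veh, while Cdkn1a gave 17.1% to 25.0% and 33.3% to 78.3%. The 7.91% and the 78.3% belong to TAC-Veh replicate 1, the library with the very high Cdkn1a. Cdkn1c itself was at 140 normalized counts per kb there, above the 118 of replicate 2. A list of genes known for imprinting was tested beside Cdkn1c, and their imprinting in this tissue was not measured. Of all genes tested, 21.4% were called higher and 23.6% lower with TAC. Of the 12 listed genes tested, 2 were higher and 4 lower in TAC-Veh (median -0.04). Those with the largest changes were Igf2, a fetal growth factor (-0.95, adjusted p 0.000312), the potassium channel gene Kcnq1 (-0.61, adjusted p 5.19e-05), Tssc4 (0.42, adjusted p 0.00371) and Igf2r, a receptor that clears Igf2 (-0.31, adjusted p 0.00341). Kcnq1 was higher again under THZ1 in TAC, by 0.49 (adjusted p 0.000983), with an interaction of 0.55 (adjusted p 0.0137), whereas Cdkn1c was not called there.

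Cdkn2b (chromosome 4, 88952198 to 88956941) encodes p15, an INK4 inhibitor known as a target of TGF-β, and had the largest log2 fold change of the 10 genes with TAC on this scale. It measured 12.7, 8.02, 11.5 and 5.74 normalized counts in Sham-Veh and 23.5, 62.2, 27.7 and 27.3 in TAC-Veh. It measured 2.39, 7.78, 1.34 and 5.07 in Sham-THZ1 and 14.2, 14.0, 17.9 and 10.9 in TAC-THZ1. TAC-Veh lay above every other library, and TAC-THZ1 lay between TAC-Veh and Sham-THZ1 without overlapping either. The log2 fold changes were 1.73 (adjusted p 0.00240, SE 0.40) for TAC under vehicle, 1.73 (adjusted p 0.00693, SE 0.40) for TAC under THZ1 and -1.15 (adjusted p 0.0398, SE 0.40) for THZ1 in TAC. In sham hearts the drug difference was -1.16 (SE 0.40, unadjusted p 0.0106, adjusted p 0.625), with overlapping groups. The interaction was 0.00 (95% interval -1.20 to 1.20, adjusted p 0.998).

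The depth of Cdkn2b limits these values. Cdkn2b met the filter, at least 10 normalized counts in at least 4 libraries, through the TAC groups, where its values were high. Every TAC library was at 10.9 or more, while Sham-Veh ran from 5.74 to 12.7 and Sham-THZ1 reached at most 7.78. It had 12, 10, 13 and 5 reads in Sham-Veh, 20, 87, 28 and 32 in TAC-Veh, 2, 9, 1 and 5 in Sham-THZ1 and 13, 11, 22 and 11 in TAC-THZ1, so the log2(normalized count + 1) scale understates its folds. The TAC calls held in 16 of 16 omissions under vehicle and 16 of 16 under THZ1. The drug call in TAC was lost without TAC-Veh replicate 2 (-0.85, adjusted p 0.147), or without TAC-THZ1 replicate 1, 2 or 4 (adjusted p 0.0686, 0.0775 and 0.0936). It was also lost with a pseudocount of 0.5 (-1.18, adjusted p 0.0504) and with array weights (-1.29, adjusted p 0.148), while DESeq2 and edgeR on the reads also called it. The neighbouring INK4 gene Cdkn2a, which encodes p16 and Arf, had 0 to 12 reads in a library and did not pass the filter. Cdkn2d, the gene of p19, was tested, with a log2 difference of 0.31 for TAC (95% interval -0.28 to 0.90, adjusted p 0.392).

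Cdkn2c (chromosome 4, 109333481 to 109339794), the gene of p18, did not pass any test. Its group means were 262 ± 17.7 normalized counts (SD, n = 4) in TAC-Veh, 252 ± 15.9 in Sham-Veh, 272 ± 34.7 in TAC-THZ1 and 250.4 ± 35.5 in Sham-THZ1. The groups overlapped in every comparison, and the log2 difference was 0.06 for TAC (95% interval -0.17 to 0.28, adjusted p 0.698) and 0.04 for THZ1 in TAC (-0.18 to 0.27, adjusted p 0.791). It made up 80.2% of the summed Cdkn2b and Cdkn2c level per kb in TAC-Veh and 93.3% in Sham-Veh, a sum that leaves out Cdkn2a and Cdkn2d.

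Counted together, 5 of the 10 genes were called for TAC-Veh against Sham-Veh, where 45.0% of all genes tested were called, so that the share of the members is near that of all genes. The median log2 difference was 0.17 over the 10 genes and 0.00 over all genes. For TAC-THZ1 against TAC-Veh, 3 were called, all lower, where 29.4% of genes were called in either direction, with medians of -0.11 and 0.01. For Sham-THZ1 against Sham-Veh, limma called 0 of the 10, where 0.0675% of genes were called (0.0225% higher and 0.0450% lower), while 2 had an unadjusted p under 0.05 (Ccnd2 and Cdkn2b) and DESeq2 and edgeR on the reads also called 0. For TAC-THZ1 against Sham-THZ1, 2 were called, both higher, where 24.2% of genes were called. For the interaction, limma called 0, where 10.0% of genes were called (4.40% higher and 5.62% lower), with 1 at an unadjusted p under 0.05 (Cdkn1a) and 0 called by DESeq2 or edgeR. The libraries of the groups did not overlap for 4 of the 10 genes in the vehicle comparison (37.3% of genes tested), 1 between the TAC groups (20.0%), 1 between the sham groups (11.3%) and 4 between TAC-THZ1 and Sham-THZ1 (33.4%). The first pair of comparisons shares the TAC-Veh libraries, so opposite signs in them are not separate measurements.

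**Figure D4:**
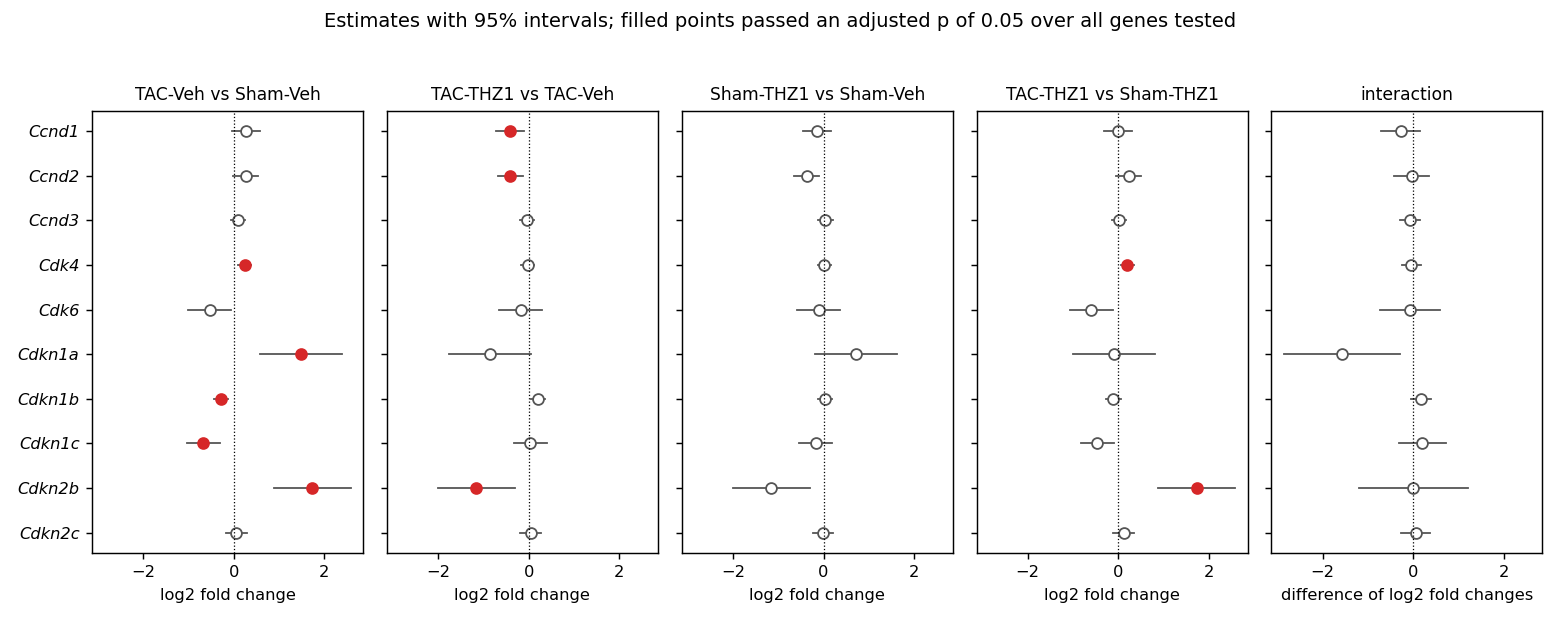
Log2 differences (horizontal axes) of the 10 genes with 95% intervals in the 4 comparisons of groups and in the interaction of drug and surgery, with filled red points where the adjusted p over all genes was under 0.05. In all, 5 genes are filled for TAC-Veh against Sham-Veh, 3 for TAC-THZ1 against TAC-Veh, none for THZ1 in sham hearts, and Cdkn1a and Cdkn2b have the widest intervals.

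Downstream of the cyclin kinases, 17 retinoblastoma and E2F genes were tested. Of these, 0 were higher and 2 lower in TAC-Veh (limma, with a median log2 difference of -0.03, against 0.00 over all genes), namely Tfdp2, the dimer partner of E2F (-0.75, adjusted p 0.000228), and Rbl2, which encodes the pocket protein p130 (-0.39, adjusted p 0.00151). Of all genes tested, 21.4% were called higher and 23.6% lower with TAC. With THZ1 in TAC, 1 of the list was higher and 4 lower, with a median of -0.14. Of all genes, 15.1% were called higher and 14.2% lower there. The activator E2f3 was -0.39 (adjusted p 0.00684) and the repressor E2f7 -0.90 (adjusted p 0.00286) there, and these were the 2 of the list called for the interaction, at -0.53 (adjusted p 0.0256) and -0.89 (adjusted p 0.0490). Tfdp2 was the 1 higher gene with THZ1 in TAC, at 0.42 (adjusted p 0.0222). For the interaction, 4.40% of all genes were called higher and 5.62% lower.

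The genes of S phase and mitosis had the lowest median of the 7 pathway lists with THZ1 in TAC. Of 22 tested, 6 were higher and 0 lower in TAC-Veh, with a median of 0.58, where 21.4% of all genes were called higher and 23.6% lower. The largest were Birc5, which encodes survivin (1.11, adjusted p 0.000634), and the thymidylate synthase gene Tyms (0.96, adjusted p 0.00941). Next came the cyclin A gene Ccna2 (0.85, adjusted p 0.0166) and Cdc20 (0.83, adjusted p 0.0291), an activator of the anaphase-promoting complex. With THZ1 in TAC, 13 were lower and 0 higher, with a median of -1.02, against 0.01 over all genes. Of all genes tested, 14.2% were called lower and 15.1% higher there. The proliferation marker Mki67 was -1.75 (adjusted p 0.000277) and the topoisomerase gene Top2a -1.71 (adjusted p 0.000767), beside Birc5 at -1.46 (adjusted p 0.000250) and Ccna2 at -1.42 (adjusted p 0.00128). The interaction was called lower for 5 of the 22, which were Birc5, Ccna2, Cdc20, Mki67 and Top2a, with values from -1.59 to -1.36 and adjusted p from 0.0135 to 0.0383. Of all genes, 5.62% were called lower for it. For the D-type cyclins the same interaction values lay between -0.28 and -0.04, and none passed.

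**Figure D5:**
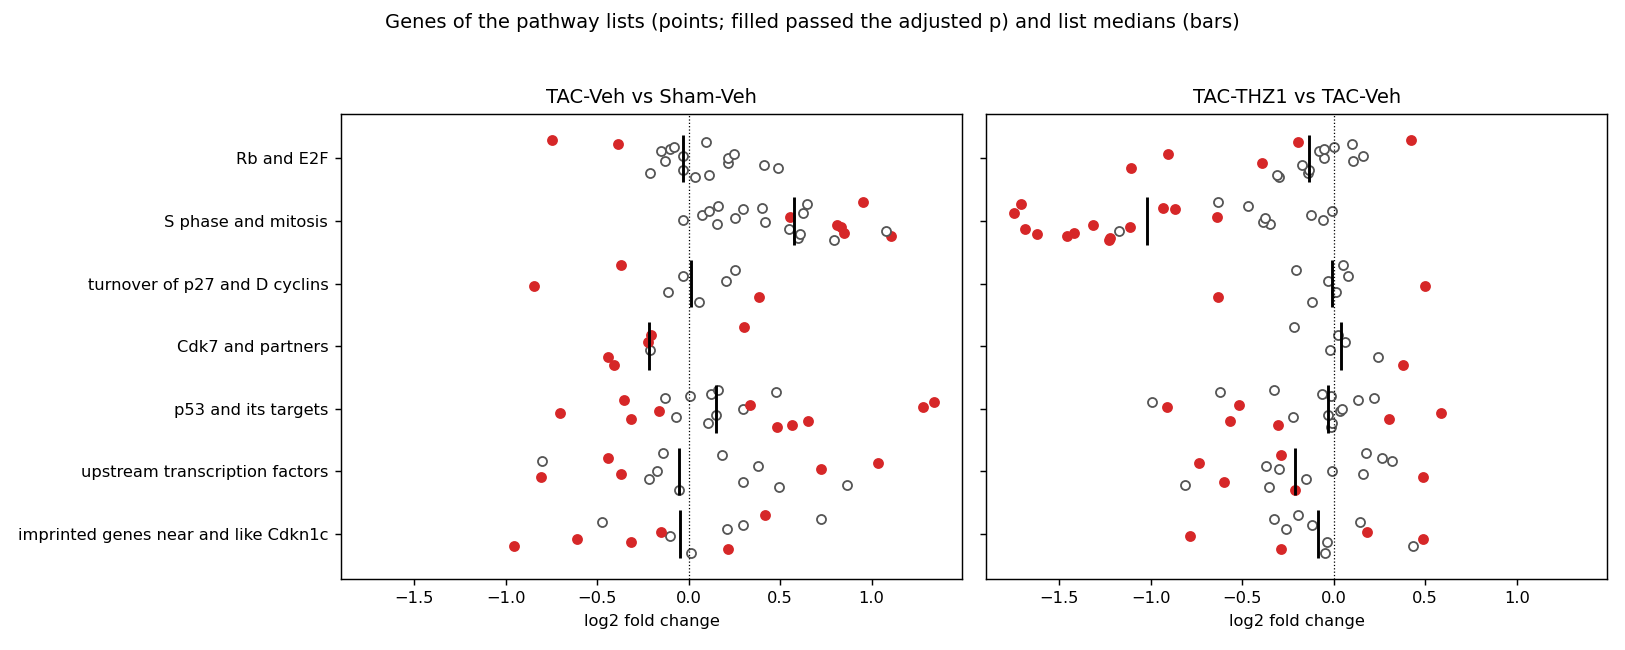
Log2 differences (horizontal axes) of the genes in 7 pathway lists for TAC-Veh against Sham-Veh and for TAC-THZ1 against TAC-Veh, with 1 point per gene, filled red where the adjusted p was under 0.05, and a black bar at the list median. The genes of S phase and mitosis lie lowest in the right panel, with a median of -1.02, while the other medians of that panel lie between -0.21 and 0.04.

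Of the 19 genes of the p53 list other than Cdkn1a, 6 were called higher, 4 lower and 9 not called in TAC-Veh (median 0.15), where 21.4% of all genes were called higher and 23.6% lower. The largest changes were in Pmaip1, the gene of the death protein Noxa (1.34, adjusted p 0.0120), Phlda3 (1.28, adjusted p 1.24e-05), Gadd45a (-0.70, adjusted p 0.00267) and Btg2 (0.65, adjusted p 0.00892). With THZ1 in TAC, 2 were higher and 4 lower (median -0.03), where 15.1% of all genes were called higher and 14.2% lower. Phlda3 (-0.78, adjusted p 0.0386), Btg2 (-0.93, adjusted p 0.0356) and Gadd45a (0.89, adjusted p 0.0270) passed the test for the interaction, the first and second lower and Gadd45a higher. Of all genes, 4.40% were called higher for the interaction and 5.62% lower.

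Transcription factors that act on cyclins and inhibitors were tested as a further list of 15. In TAC-Veh, 2 were higher and 3 lower (median -0.05), where 21.4% of all genes were called higher and 23.6% lower. Myc, which binds E-boxes, rose by 1.04 (adjusted p 0.00234) and Junb by 0.73 (adjusted p 0.0171), while Foxo3, an activator of Cdkn1b, was -0.81 (adjusted p 0.000171) and Smad3, which carries TGF-β signals, -0.44 (adjusted p 0.00900). With THZ1 in TAC, 4 were lower, Myc among them at -0.74 (adjusted p 0.0295), and 1 was higher, Foxo3 at 0.49 (adjusted p 0.0129), with a list median of -0.21. Of all genes, 14.2% were called lower and 15.1% higher with THZ1 in TAC. Fosl2 and Stat3 were called lower for the interaction, at -1.06 (adjusted p 0.0173) and -0.48 (adjusted p 0.0167), where 5.62% of all genes were called lower. Whether these factors acted on the members was not tested.

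Among 8 genes for the turnover of p27 and the D-type cyclins, 1 was higher and 2 lower in TAC-Veh (median 0.01). Of all genes tested, 21.4% were called higher and 23.6% lower with TAC. Cks1b, the cofactor with which Skp2 marks p27 for destruction, rose (0.38, adjusted p 0.0483) and was lower with THZ1 in TAC (-0.63, adjusted p 0.00549). Fbxo31, a ubiquitin ligase subunit for cyclin D1, was -0.84 (adjusted p 4.52e-05) and Usp19 -0.37 (adjusted p 0.000938). Ambra1, which guides cyclins D to degradation, was called lower for the interaction, at -0.30 (adjusted p 0.0332). Among the 6 genes of the THZ1 targets and their partners, 1 was higher and 4 lower in TAC-Veh (median -0.21). The shares of all genes called with TAC are those just given. Cyclin H (Ccnh) was -0.41 (adjusted p 0.000381), cyclin K (Ccnk) -0.44 (adjusted p 0.00412) and Cdk13 -0.22 (adjusted p 0.00666), while Mnat1, which encodes Mat1, was higher by 0.30 (adjusted p 0.0279). Ccnh was the 1 gene of this list called with THZ1 in TAC, higher by 0.38 (adjusted p 0.00171), and the 1 called for the interaction, at 0.46 (adjusted p 0.0155). With THZ1 in TAC, 15.1% of all genes were called higher and 14.2% lower, and for the interaction 4.40% and 5.62%.

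The tissue is a mixture of cells, and fewer cells of a type cannot be told apart from less RNA per cell in it. Markers of several cell types also differed between the groups. Cdkn2b was the only member called both with TAC under vehicle and with THZ1 in TAC. Of all genes tested, 21.4% were called higher and 23.6% lower with TAC. With THZ1 in TAC these shares were 15.1% and 14.2%. Cardiomyocyte markers were lower in TAC-Veh for 4 of 7 (Myh6, Pln, Ryr2 and Tnni3) and higher with THZ1 in TAC for 5 of 7. Their summed level ran from 1173264 to 1281131 normalized counts in Sham-Veh and 1204870.1 to 1257269 in Sham-THZ1. It ran from 567462 to 834657 in TAC-Veh and 996985 to 1248765 in TAC-THZ1. Myh6 weighs most in this sum, with means of 501105 in Sham-Veh and 225634 in TAC-Veh. The markers did not move alike, so the sum is not a count of cardiomyocytes. Actn2 had means of 41206 in Sham-Veh and 40228 in TAC-Veh. Myl2 had means of 221125 in Sham-Veh, 172092 in TAC-Veh and 268845 in TAC-THZ1. Activated fibroblast markers were higher in TAC-Veh for 3 of 4 and lower with THZ1 in TAC for 3 of 4 (Postn, Cthrc1 and Fn1 in both). Their summed levels were 3976 to 4924, 4468 to 5309, 23400.1 to 74895 and 4067 to 9913 in the same order of groups. Postn made up most of this sum in TAC-Veh, with a mean of 38153 of 43804. Cthrc1 passed the filter only through the TAC groups, where it was high, with at most 5.30 in Sham-Veh and 4.32 in Sham-THZ1. Acta2 was not called with TAC, with means of 1746 in Sham-Veh and 1661 in TAC-Veh. Fibroblast markers were higher for 4 of 6 and then lower for 3 of 6, at 20067 to 22209, 20230.5 to 21891, 38149 to 49275 and 24291 to 36367. In TAC-Veh replicates 1 to 4, Cdkn2b measured 23.5, 62.2, 27.7 and 27.3 normalized counts. The activated fibroblast sums were 51387, 74895, 23400 and 25534, and the cardiomyocyte sums 809918, 567462, 834657 and 815705. Replicate 2, a single library, had the highest Cdkn2b, the highest activated fibroblast sum and the lowest cardiomyocyte sum. Without it, the drug call for Cdkn2b in TAC was lost (limma adjusted p 0.147). Cdkn2b in replicates 1, 3 and 4 rested on 20, 28 and 32 reads, so their order is uncertain. Whether Cdkn2b and these sums are related was not tested.

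Macrophage markers were higher in TAC-Veh for 4 of 6 and not called with THZ1 in TAC for 6 of 6, with sums of 6993 to 8610.3, 6845 to 8116, 10646 to 13014 and 7637 to 15453. The neutrophil markers that passed the filter (S100a8, S100a9 and Cxcr2) were higher in TAC-THZ1 than in TAC-Veh for 3 of 3. Cxcr2 passed the filter mainly through TAC-THZ1, where it was high, so its call is not separate support. It reached at most 92.8 normalized counts there, 9.41 in TAC-Veh and 30.2 in Sham-THZ1. The neutrophil sums were 135 to 6461 in TAC-THZ1 and 39.2 to 214 in TAC-Veh. They were 15.9 to 46.0 in Sham-Veh and 46.6 to 391 in Sham-THZ1. Endothelial markers were higher for 2 and lower for 2 of 6 in TAC-Veh and higher for 1 and lower for 2 of 6 with THZ1 in TAC. Mural markers were lower for 3 of 5 in TAC-Veh, and higher for 1 and lower for 1 of 5 with THZ1 in TAC. The shares of all genes called in these comparisons are those given above. Lymphocyte markers were below the filter for 3 of 5 and atrial markers for 3 of 4. The part of these cell mixtures in the changes of the cyclins and inhibitors was not tested.

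The genes whose pattern over the 16 libraries was most like each member were found by Pearson r on the log2 scale, over points that share groups and library scaling. Ccnd1 was nearest to Tns3, Tdrd7 and Traf3 (r 0.926, 0.912 and 0.910), and Ccnd2 to Xpr1, Mcm2 and Abca8b (0.885, 0.884 and 0.872). Mcm2, a subunit of the helicase that opens DNA for replication, is also in the list of S phase genes. Cdk4 was nearest to Tmem106c, Sec61b and BC028528 (0.919, 0.909 and 0.905). Cdkn1b was nearest to Bbs2, P4htm and Nrbp2 (0.932, 0.929 and 0.922) and Cdkn1c to Ppp2r5c, Sdpr and Sspn (0.934, 0.932 and 0.927). Cdkn2b was nearest to Ildr2, Tmem97 and Ankrd10 (0.920, 0.917 and 0.914). For Ccnd3 the nearest genes, Ppan, Ccdc76 and Zcchc10, reached 0.735, 0.733 and 0.719, the lowest of the 10. Cdk6 came nearest to Atrnl1, Thbs2 and Bag4 (0.847, 0.846 and 0.833) and Cdkn2c to Adck5, Sash3 and Arl6ip1 (0.841, 0.793 and 0.791).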

How the data were processed

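RNA sequencing of 16 mouse ventricle libraries, 4 per group, was analysed from 1 table. The authors aligned single-end reads of 40 bases to mm9 with TopHat 2.1.1, counted them per GENCODE gene by strand with htseq-count and divided each library by its DESeq2 size factor, so the deposited signal is a normalized count. It held whole multiples of 1 read for 100% of values (tolerance 0.001 reads), which gave read counts of 21.4 to 35.8 M per library, size factors of 0.749 to 1.40 and a mitochondrial share of 33.2% to 44.7%. No 2 libraries of a group agreed within sampling noise, since chi-square per degree of freedom was 2.97 to 93.5. The labels give no batch. The study's methods state another daily scheme for THZ1 than the labels, and the dose of the labels is given.

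The 13331 genes with at least 10 normalized counts in at least 4 libraries were tested with limma 3.58.1 (R 4.3.3) after log2 transformation of the normalized count plus 1, in a model of 4 group means without covariates, using eBayes with trend. Benjamini-Hochberg adjustment ran over all of them, separately for each of 5 contrasts, and genes under 0.05 were called. The interaction is the THZ1 difference in TAC minus that in sham. Intervals are 95%. P-values measure the spread between these libraries, each taken as a separate heart. Exon lengths, overlaps and repeated 40-base windows came from GENCODE vM1 on NCBIM37, and promoters from the RefSeq table, whose build is GRCm38.p6, each placed on NCBIM37 by exact match.

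Named genes were the 10 members, and from each pathway list up to 4 with the largest change among those called with TAC, those called for the interaction, and the 3 genes most like each member. The p53 genes given for TAC-Veh replicate 1 and some drug values were chosen after their values were seen. The members and lists were chosen with earlier results of these data known. Alternatives were other pseudocounts, filters and scalings, a fit of only the groups compared, array weights, robust eBayes, stricter thresholds, the replicate block, omission of each library, and DESeq2 1.42.0 and edgeR 4.0.16 on the recovered reads. The scripts were tested on simulated data. Figures were made in Matplotlib 3.10.9 (Python 3.11.15, NumPy 2.4.6, pandas 2.3.3).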

Additional observations from a re-analysis of the deposited data

Results flagged for a closer look

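In TAC-Veh, Cdkn1a reached 3080 normalized counts in replicate 1, against 485 to 762 in the other 3 libraries, and this library lies far from the rest of its group by Dixon's test at the 95% level. Cdkn2b reached 62.2 normalized counts in replicate 2 of TAC-Veh, against 23.5 to 27.7 in the others, by the same test. Chance flags about 1 in 20 groups, and 2 of the 40 sets of 4 libraries formed by the 10 genes and 4 groups stood out, the number that this rate gives. With replicate 1 left out, the Cdkn1a difference for TAC was 0.89 on the log2 scale (limma, adjusted p 0.0120). With replicate 2 left out, the Cdkn2b difference was 1.42 for TAC (adjusted p 0.0113) and -0.85 for THZ1 in TAC (adjusted p 0.147).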

How the results depend on the processing

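No direction of a called gene reversed under the 30 alternatives. In DESeq2 the study asked for a log2 rise of at least 1 with TAC and a fall of at least 0.89 with THZ1 in TAC. Here these sizes were applied in either direction to the limma values, and also in the other contrasts. For TAC-Veh against Sham-Veh, 5 of the 10 genes were called. The fold thresholds of the study (1 for TAC, 0.89 for THZ1, on the log2 scale) left 2, Cdkn1a and Cdkn2b. Leaving out a library gave 5 to 7. For TAC-THZ1 against TAC-Veh, 3 were called, and an adjusted p under 0.01 left 0, the groups compared alone 1 and the fold thresholds 1. Single calls there also changed, since Ccnd1 was lost with no filter on low values, quantile normalization or the replicate block, Cdkn2b with a pseudocount of 0.5 or array weights, and DESeq2 added Cdkn1b. Leaving out a library gave 0 to 4, with 0 without TAC-Veh replicate 2, TAC-THZ1 replicate 1 or TAC-THZ1 replicate 2. For Sham-THZ1 against Sham-Veh, 0 were called, against 2 with the groups compared alone (Ccnd2 and Cdkn1a) and 1 with array weights (Ccnd2). For TAC-THZ1 against Sham-THZ1, 2 were called, against 1 with no filter on low values, a minimum mean of 50 normalized counts, an adjusted p under 0.01 or the fold thresholds, and 4 with the groups compared alone or array weights. Cdk6 and Cdkn1c were the genes added there, Cdk6 was also added by quantile normalization or the block and Cdkn1c by DESeq2, and for TAC-Veh against Sham-Veh quantile normalization or the block added Cdk6. Leaving out a library gave 1 to 4 for TAC-THZ1 against Sham-THZ1. For the interaction, 0 were called, against 1 with array weights and 0 to 1 with a library left out. A minimum mean of 50 removed Cdkn2b and Cdk6 from the test, and the cause of the other moves was not tested. Same-numbered replicates did not deviate together (24 pairs, r -0.43 to 0.16, 2 over 0.1). With 4 libraries per group, these correlations cannot exclude a batch shared by some of the libraries. With the replicate number as a block, 6, 2, 0, 2 and 0 genes were called in the 5 contrasts in the order above. Depth limits Cdkn2b and Cdk6 most, at 1 to 87 and 20 to 72 reads per library.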
